A study of Homo sapiens with 14 samples.

Results

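The genes described here take up, move, store, export and sense cellular iron or break down heme. They are TFRC, TFR2, STEAP3, SLC11A2, SLC25A37, FTH1, FTL, SLC40A1, HMOX1 and IREB2, chosen by name, and they make up 10 of the 24729 genes in the deposited read count table. All 10 passed the filter on low counts, HMOX1 only through the sgHS1-5 group. Their mRNA was measured by RNA-seq of total RNA in 14 libraries of K562, a human line from chronic myeloid leukemia that keeps an erythroid-like program, grown in IMDM with fetal bovine serum. The 5 groups were unmodified cells (WT, 2 libraries) and 4 populations, 3 libraries each, that carried the FB-dCas9-BirA system with the sgRNA or sgRNAs of their label. FB-dCas9 is a Flag- and biotin-tagged Cas9 without cutting activity, and BirA is a biotin ligase from bacteria. sgGal4 has no target in the genome, and sgHS2, sgHBG and sgHS1-5 target regulatory elements of the β-globin cluster. The label sgHS1-5 does not say whether 1 sgRNA or several were used. The labels do not say whether an sgRNA population was a pool or 1 clone, nor whether its libraries came from separate cultures. The effect of an sgRNA and the history of its population therefore cannot be told apart, and p-values measure only the spread between these libraries, which may be technical. The comparison with sgGal4 covers the targeting sgRNA together with the history of both populations. The comparison with WT covers the tagging system as well.

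Erythroid cells need more iron than most cells because they build heme for hemoglobin. Transferrin-bound iron enters through the transferrin receptor, is reduced in the endosome, crosses into the cytosol and reaches mitochondria or the ferritin shell, and the surplus leaves through ferroportin. Iron regulatory proteins bind a hairpin, the iron-responsive element, when iron is scarce. Bound at the 5′ end of an mRNA they block its translation, and bound in the 3′ UTR of TFRC they protect the mRNA from decay. Protein and translation were not measured here, so only mRNA levels are described.

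The hairpins are shown first because iron regulatory proteins act through them on the mRNAs that carry them. A search of the untranslated regions in GENCODE release 29 (GRCh38), on the transcript strand, required a bulged C, 5 paired bases on each side of a loop reading CAGTGN, and at least 3 of 4 pairs below the bulge. Matches were found in 26 of 19627 protein-coding genes (0.132%) and in 4 of the 10 genes described here, which were chosen partly for this known control. The loop is in capitals.
FTH1, 5′ UTR, chr11:61967574-61967602, minus strand: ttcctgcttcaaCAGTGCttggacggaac
FTL, 5′ UTR, chr19:48965335-48965363, plus strand: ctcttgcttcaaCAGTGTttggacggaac
SLC40A1, 5′ UTR, chr2:189580661-189580689, minus strand: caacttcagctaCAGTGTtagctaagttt
TFRC, 3′ UTR, chr3:196050979-196051007, minus strand: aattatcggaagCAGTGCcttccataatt
TFRC, 3′ UTR, chr3:196050575-196050603, minus strand: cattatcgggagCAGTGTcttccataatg
TFRC, 3′ UTR, chr3:196050510-196050538, minus strand: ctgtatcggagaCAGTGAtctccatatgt
TFRC, 3′ UTR, chr3:196050463-196050491, minus strand: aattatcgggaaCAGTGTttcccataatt
A match describes the letters only, and no match says only that this pattern was not found in the annotated transcripts. TFRC held 4 matches in its 3′ UTR, and FTH1, FTL and SLC40A1 held 1 each near the start of the mRNA.

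Libraries held 5694448 to 11335831 counted reads, fewest in the sgHS1-5 group. Read counts of WT, sgHBG and most other replicates differed little beyond sampling noise (chi-square per degree of freedom 1.25 to 3.11), but 3 libraries stood apart from their group. They were sgGal4 1 (90.1 and 93.9 against the other two), sgHS2 2 (16.6 and 17.3) and sgHS1-5 2 (11.95 and 18.4). All 16 erythroid markers checked had reads in every library, with a summed level of 1194 to 2579 CPM (reads scaled to library size with TMM factors). For 140 transcripts picked for a mean of at most 0.1 CPM in the other 11 libraries and at least 5 CPM in an sgHS1-5 library, the sum was 3.32 to 6.28 CPM in those 11. This gap was set by the choice, but the sgHS1-5 libraries differed among themselves, at 78.1 CPM in sgHS1-5 1, 2117 CPM in sgHS1-5 2 and 512 CPM in sgHS1-5 3. Deviations of sgGal4 1 and sgHS2 2 from their group means were correlated across genes (r = 0.62), the highest r of any pair of libraries from different sgRNA groups. Calls that changed without sgGal4 1, without sgHS1-5 2, or without sgHS1-5 2 and 3 are given beside each gene. In the last case sgHS1-5 1 stands alone and is assumed to vary like the other groups. Fewer cells of a kind and less RNA per cell cannot be told apart in these bulk samples.

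Most of the iron genes differed among the 5 populations, as did most tested genes. In a test of any difference between the 5 groups, 9 of the 10 genes passed an adjusted p of 0.05, where 67.1% of all 14406 tested genes did, so the share is to be read against a high background. The 9 include HMOX1, which had to differ to pass the filter on low counts. Without it, 8 of 9 genes passed. FTL was the gene that did not pass (adjusted p = 0.145). Against WT, TFRC and SLC40A1 rose in all 4 sgRNA populations. Against sgGal4, IREB2 rose in all 3 targeting populations, SLC25A37 rose in sgHS2 and sgHS1-5, and STEAP3 and TFR2 fell in sgHS2 and sgHBG. For IREB2, none of the 3 targeting populations was called different from WT, while sgGal4 was below WT. SLC25A37 in sgHS2 and sgHS1-5 was likewise not called different from WT (log2 difference -0.01 and 0.18), while sgGal4 was below WT (-1.16). STEAP3 in sgHS2 and sgHBG was not called different from WT (-0.44 and 0.08), while sgGal4 was above WT (0.76). For TFR2, no sgRNA population was called different from WT.

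The counts per comparison are given beside the share of all tested genes that passed. In sgGal4 against WT, 6 of the 10 passed (42.4% of all genes), 3 of them higher (22.7%) and 3 lower (19.6%). In sgHS2 against sgGal4, 4 passed (30.1%), 2 higher (14.5%) and 2 lower (15.6%). In sgHBG against sgGal4, 4 passed (24.7%), 2 higher (12.1%) and 2 lower (12.6%). In sgHS1-5 against sgGal4, 4 passed (40.4%), 3 higher (20.3%) and 1 lower (20.2%). Over the 9 genes other than HMOX1, the median log2 difference was 0.33, 0.22, 0.10 and -0.13 in these comparisons, beside 0.03, -0.02, 0.00 and 0.02 over all tested genes. Calls thus went in both directions in each comparison with sgGal4, in numbers to be read beside the shares of all genes. In sgHS1-5 the only lower call was that of FTL, which was lost in 22 of the 27 other settings. Against WT, 2 passed in sgHS2 (33.1%), 2 higher (17.6%) and 0 lower (15.5%). In sgHBG 4 passed (33.6%), 2 higher (17.7%) and 2 lower (15.9%). In sgHS1-5 6 passed (42.9%), 4 higher (23.4%) and 2 lower (19.5%). Between targeting populations, 1 gene passed in sgHS2 against sgHBG (8.91%), 1 higher (3.76%) and 0 lower (5.15%). In sgHS1-5 against sgHBG 3 passed (25.2%), 3 higher (12.4%) and 0 lower (12.8%). In sgHS1-5 against sgHS2 3 passed (38.9%), 2 higher (20.4%) and 1 lower (18.5%). Each count of higher genes in sgHS1-5 includes HMOX1, which had to differ to pass the filter. The comparisons against 1 control share its libraries and are not independent of each other.

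**Figure D1:**
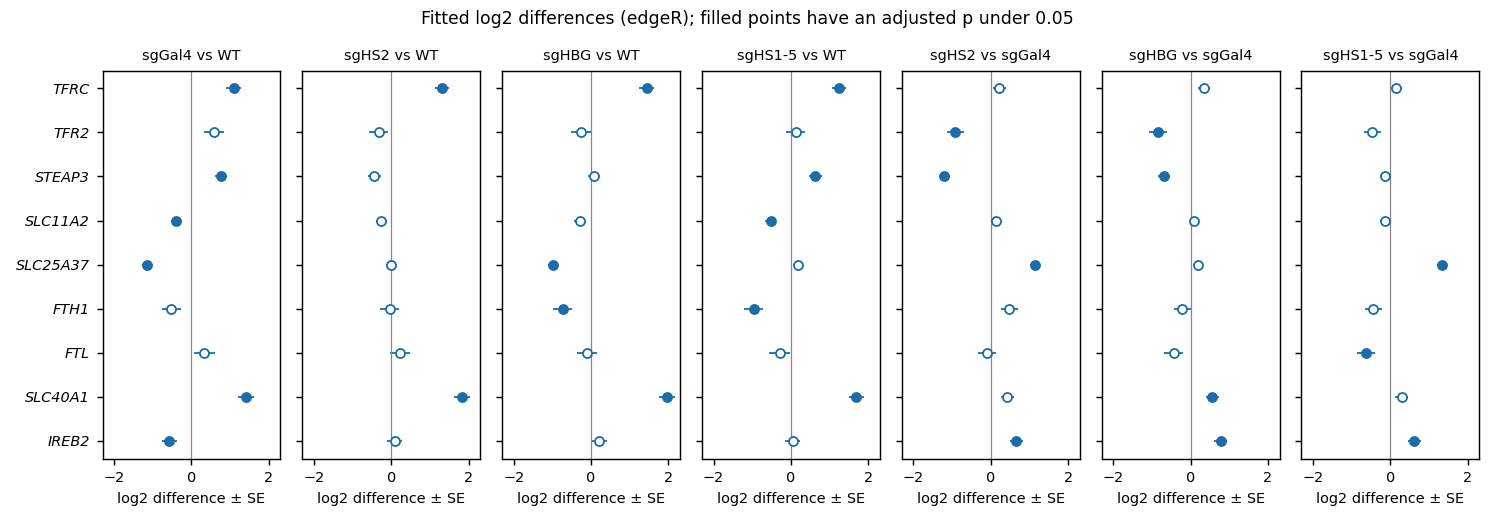
Fitted log2 difference ± SE (x axis) of 9 genes (y axis) in the 4 comparisons with WT and the 3 with sgGal4. Filled points have an adjusted p under 0.05 in edgeR's test, and HMOX1 is not drawn because its reads were 0 in WT and sgGal4. TFRC and SLC40A1 lie to the right in all 4 comparisons with WT, and IREB2 to the right in all 3 with sgGal4.

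Levels between genes can be compared only per length, by the deposited RPKM values. In WT libraries 1 and 2, the ferritin chains led with 4446 and 4475 RPKM for FTL and 2704 and 2735 for FTH1. TFRC followed at 102 and 104 RPKM, SLC25A37 at 66.8 and 68.0, and TFR2 at 53.4 and 50.4. SLC11A2 stood at 23.1 and 22.3 RPKM, IREB2 at 19.98 and 19.6, SLC40A1 at 9.87 and 10.9, and STEAP3 at 4.82 and 4.59. HMOX1 was listed at 0.0309 and 0, with no read in either library of the count table. The storage mRNAs thus exceeded the uptake receptor TFRC by more than an order of magnitude in the WT libraries.

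**Figure D2:**
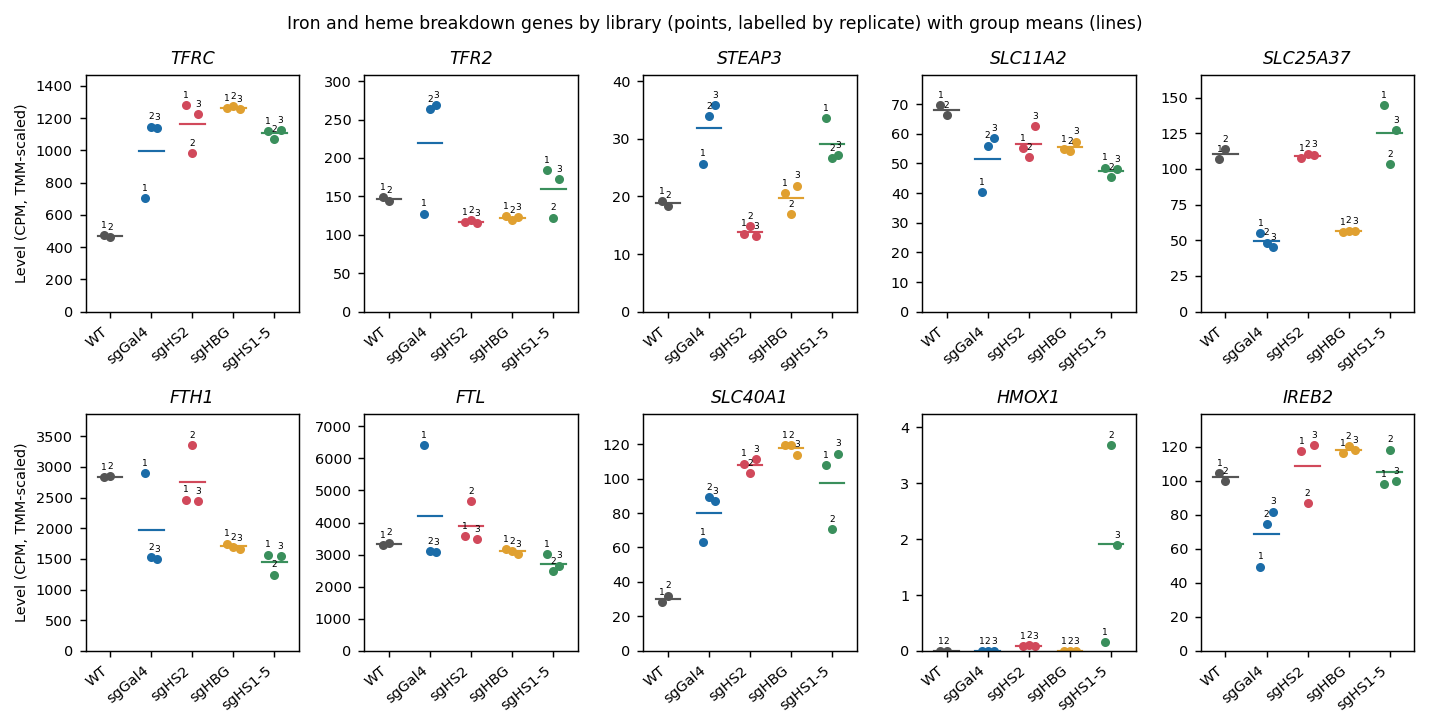
Level of each of the 10 genes (y axis, TMM-scaled CPM, own scale per panel) in the 14 libraries (points, numbered by replicate) of the 5 groups (x axis), with group means as lines. WT lies lowest for TFRC and SLC40A1, sgGal4 and sgHBG lie low for SLC25A37, and sgGal4 1 lies apart from sgGal4 2 and 3 for FTH1, FTL, TFR2 and TFRC.

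TFRC, the transferrin receptor that carries iron-loaded transferrin into the cell (chr3:196027183-196082189, minus strand), was lowest in WT. Its level was 474 and 461 CPM in WT 1 and 2. In the sgGal4 libraries it was 703, 1147 and 1141 CPM, and in sgHS2 1279, 983 and 1225 CPM. The sgHBG libraries held 1263, 1275 and 1256 CPM, and the sgHS1-5 libraries 1120.2, 1071 and 1126 CPM. Every sgRNA library was above both WT libraries, and sgGal4 1 was the lowest of the 12. TFRC rose 2.13-fold in sgGal4 over WT (log2 difference 1.09 ± 0.19 SE, adjusted p = 0.000514), 2.49-fold in sgHS2 (adjusted p = 0.00019), 2.71-fold in sgHBG (adjusted p = 9.8e-05) and 2.37-fold in sgHS1-5 (adjusted p = 0.000218). Among the 4 sgRNA populations the order of means was sgHBG, sgHS2, sgHS1-5 and sgGal4, and no neighbours in it differed (adjusted p from 0.487 to 0.753). The differences from sgGal4 were 0.22 for sgHS2, 0.34 for sgHBG and 0.15 for sgHS1-5 (adjusted p = 0.333, 0.138 and 0.487). Without sgGal4 1 the difference for sgHS1-5 turned to -0.05 (adjusted p = 0.678). With sgHS2 2 left out as well, TFRC was lower in sgHS1-5 than in sgHBG (-0.21, adjusted p = 0.00034 in edgeR's test) and sgHS2 (-0.18, adjusted p = 0.00147). It was then higher than sgGal4 in sgHBG (0.14, adjusted p = 0.0114) and sgHS2 (0.11, adjusted p = 0.0441). sgHS1-5 against sgGal4 (-0.07, adjusted p = 0.127) and sgHS2 against sgHBG (-0.03, adjusted p = 0.633) did not pass in that setting.

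TFR2, a second transferrin receptor that binds transferrin more weakly and acts mainly as an iron sensor in erythroid and liver cells (chr7:100620416-100642779, minus strand), was high in part of the sgGal4 group. The sgGal4 libraries held 128, 264 and 268 CPM, with library 1 far below the other two. WT held 149 and 144 CPM. The sgHS2 libraries held 116, 119 and 115 CPM and the sgHBG libraries 124, 119 and 123 CPM, all below every WT and sgGal4 library. The sgHS1-5 libraries spread over 184, 122 and 172 CPM. TFR2 fell by 0.91 ± 0.23 on the log2 scale in sgHS2 against sgGal4 (1.88-fold lower, adjusted p = 0.00915) and by 0.85 ± 0.23 in sgHBG (1.80-fold lower, adjusted p = 0.0173). The call for sgHBG was lost without sgGal4 2 or 3 or any 1 sgHBG library (adjusted p from 0.0517 to 0.0618). The differences of sgGal4 from WT (0.58, adjusted p = 0.0836) and of sgHS1-5 from sgGal4 (-0.46, adjusted p = 0.119) did not pass. Without sgGal4 1 they were 0.86 (adjusted p = 0.000174) and -0.74 (adjusted p = 0.000405), and both passed, as did sgHS2 below WT (-0.33, adjusted p = 0.0438), which was not called with all libraries. sgHS1-5 was above sgHBG by 0.38 and above sgHS2 by 0.45 on the log2 scale (adjusted p = 0.245 and 0.138), and without sgGal4 1, which enters these only through the shared spread, the adjusted p was 0.0162 and 0.00500. In the order of means, sgGal4, sgHS1-5, WT, sgHBG and sgHS2, no neighbours differed.

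STEAP3, the endosomal reductase that turns ferric into ferrous iron in erythroid cells (chr2:119223831-119265652, plus strand), was lowest in sgHS2 and highest in sgGal4 and sgHS1-5, which overlapped. Its level was 19.1 and 18.4 CPM in WT and 25.7, 34.0 and 35.8 CPM in sgGal4. The sgHS2 libraries held 13.6, 14.9 and 13.2 CPM, below every other library. The sgHBG libraries held 20.5, 16.9 and 21.9 CPM, around the WT level, and the sgHS1-5 libraries held 33.5, 26.6 and 27.2 CPM, in the sgGal4 range. STEAP3 rose 1.70-fold in sgGal4 over WT (log2 difference 0.76 ± 0.17, adjusted p = 0.00269). Against sgGal4 it fell in sgHS2 (log2 difference -1.20 ± 0.15, adjusted p = 8.96e-05) and in sgHBG (1.61-fold, -0.69 ± 0.15, adjusted p = 0.00507). sgHS1-5 was 2.10-fold above sgHS2 (1.07 ± 0.15, adjusted p = 0.000183).

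Smaller differences of STEAP3 hung on single libraries. sgHS1-5 was 1.55-fold above WT (0.63 ± 0.17, adjusted p = 0.00896), a call lost without WT 2 (adjusted p = 0.0688). It was 1.47-fold above sgHBG (0.55 ± 0.15, adjusted p = 0.0159), a call lost without sgHS1-5 1 (adjusted p = 0.0632) or sgHBG 2 (adjusted p = 0.0778). sgHS2 was below sgHBG by 0.51 ± 0.15 (adjusted p = 0.0526) and below WT by 0.44 ± 0.17 (adjusted p = 0.0615), neither of which passed. Without sgGal4 1 these had an adjusted p of 0.00793 and 0.0145, and without sgHS1-5 1 or 2, or without sgHS1-5 2 and 3, the first had 0.0454, 0.0453 and 0.0497. The order of means was sgGal4, sgHS1-5, sgHBG, WT and sgHS2, with a difference between neighbours only from sgHS1-5 to sgHBG.

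SLC11A2, the transporter DMT1 that moves ferrous iron out of the endosome (chr12:50979401-51028566, minus strand), was highest in WT. WT held 69.6 and 66.4 CPM. The sgGal4 libraries held 40.3, 56.0 and 58.5 CPM, the sgHS2 libraries 55.3, 52.1 and 62.5 CPM, the sgHBG libraries 54.8, 54.2 and 57.4 CPM, and the sgHS1-5 libraries 48.6, 45.3 and 48.0 CPM. Every sgRNA library was below both WT libraries, and sgHS1-5 lay below every sgHS2 and sgHBG library. SLC11A2 fell 1.44-fold in sgHS1-5 against WT (log2 difference -0.52 ± 0.14, adjusted p = 0.0101), a call lost without WT 1 (adjusted p = 0.0709) or without sgHS1-5 2 and 3 (adjusted p = 0.122). It fell 1.31-fold in sgGal4 against WT (-0.39 ± 0.14, adjusted p = 0.0400), a call lost without either WT library (adjusted p = 0.177 without WT 1, 0.111 without WT 2). That call was also lost without sgHS2 1, any sgHBG library or sgHS1-5 3, which enter it only through the shared spread (adjusted p from 0.0540 to 0.0592), and without sgHS1-5 2 and 3 (adjusted p = 0.0575). The remaining differences were not called with all libraries, but 5 of them passed without sgGal4 1. SLC11A2 was then lower in sgHS1-5 than in sgGal4 (-0.28, adjusted p = 0.0185), sgHS2 (-0.26, adjusted p = 0.0121) and sgHBG (-0.23, adjusted p = 0.0301). It was also lower than WT in sgHS2 (-0.26, adjusted p = 0.0183) and sgHBG (-0.29, adjusted p = 0.00980). With all libraries, no neighbours in the order WT, sgHS2, sgHBG, sgGal4 and sgHS1-5 differed, and the test of any difference between the groups was narrow (adjusted p = 0.0498).

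SLC25A37, mitoferrin-1, brings iron into the mitochondria of erythroid cells, where it is used for heme and iron-sulfur clusters. Its groups fell into 2 levels. WT held 107 and 114 CPM, the sgHS2 libraries 108, 111 and 110.0 CPM, and the sgHS1-5 libraries 144, 103 and 127 CPM. The sgGal4 libraries held 55.2, 48.3 and 45.2 CPM and the sgHBG libraries 55.5, 56.8 and 56.2 CPM. No library of the higher level overlapped the lower one. SLC25A37 fell 2.23-fold in sgGal4 against WT (log2 difference -1.16 ± 0.13, adjusted p = 1.8e-05) and 1.97-fold in sgHBG against WT (-0.98 ± 0.13, adjusted p = 9.82e-05). It rose 2.21-fold in sgHS2 against sgGal4 (1.14 ± 0.12, adjusted p = 2.07e-05) and 2.53-fold in sgHS1-5 against sgGal4 (1.34 ± 0.12, adjusted p = 6.44e-06). It was 1.95-fold higher in sgHS2 than in sgHBG (adjusted p = 0.000357) and 2.23-fold higher in sgHS1-5 than in sgHBG (adjusted p = 3.5e-05). These 6 calls held in every setting tried, including without the libraries that stood apart. Within the levels, sgHS2 and sgHS1-5 differed from WT by -0.01 and 0.18 on the log2 scale (adjusted p = 0.955 and 0.298), and sgHBG from sgGal4 by 0.18 (adjusted p = 0.277). sgHS1-5 was not called different from sgHS2, but it was higher without sgHS1-5 2 (0.31, adjusted p = 0.0345).

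ALAS2, the erythroid enzyme that begins heme synthesis in mitochondria and itself carries an iron-responsive element, was measured beside SLC25A37. Its level was 101 and 101 CPM in WT, 42.3 to 67.2 CPM in sgGal4, 165 to 186 CPM in sgHS2, 52.4 to 54.8 CPM in sgHBG and 55.6 to 85.2 CPM in sgHS1-5. Both genes were thus lower in sgGal4 and sgHBG than in WT. They parted in sgHS1-5, where ALAS2 was below both WT libraries and SLC25A37 was at its higher level, and in sgHS2, where ALAS2 alone was above every WT library. The 16 erythroid markers, ALAS2 among them, summed to 2022 to 2026 CPM in WT, 1194 to 1879 in sgGal4, 2125 to 2579 in sgHS2, 1334 to 1350 in sgHBG and 1412 to 2143 in sgHS1-5. The sgHBG and sgGal4 sums were below both WT and all sgHS2 sums, while sgGal4 and sgHS1-5 overlapped. The part of this sum in the SLC25A37 result was not tested.

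FTH1 encodes the heavy chain of ferritin, which oxidizes iron for storage, and FTL the light chain, which helps to form the iron core. The FTH1 level was 2829.9 and 2848 CPM in WT. The sgGal4 libraries held 2904, 1529.6 and 1493 CPM; the first was near WT and the other two were far lower. The sgHS2 libraries held 2469, 3361 and 2438 CPM. The sgHBG libraries held 1748, 1697 and 1668 CPM and the sgHS1-5 libraries 1572, 1245 and 1549 CPM, all below every WT and sgHS2 library. Reads of FTH1 (chr11:61959718-61967660, minus strand) and FTL (chr19:48965301-48966878, plus strand) can be shared with their processed pseudogenes, so their levels are uncertain. The 4 other ferritin-like symbols in the table held at most 14 reads together per library.

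FTH1 fell 1.95-fold in sgHS1-5 against WT (log2 difference -0.96 ± 0.25, adjusted p = 0.00720) and 1.67-fold in sgHBG against WT (-0.74 ± 0.25, adjusted p = 0.0356). The sgHBG call was lost without any 1 sgHBG library (adjusted p from 0.0713 to 0.0892) or either WT library (adjusted p = 0.131 and 0.138), and with the replicate number as a block (-0.68, adjusted p = 0.0681). FTH1 was 1.89-fold lower in sgHS1-5 than in sgHS2 (-0.92 ± 0.23, adjusted p = 0.00652). Without sgHS1-5 2 and 3 all 3 calls were lost, with an adjusted p of 0.122 for sgHS1-5 against WT, 0.0523 for sgHBG against WT and 0.147 for sgHS1-5 against sgHS2. Differences that involve sgGal4 depended on its library 1. With all libraries they were -0.52 for sgGal4 against WT, 0.48 for sgHS2 against sgGal4 and -0.21 for sgHBG against sgGal4 (adjusted p = 0.108, 0.127 and 0.508). Without sgGal4 1 they were -0.91 (adjusted p = 0.000133), 0.87 (adjusted p = 0.000203) and 0.17 (adjusted p = 0.338). The difference of sgHS1-5 from sgGal4 was -0.44 (adjusted p = 0.135). It was -0.0545 without sgGal4 1 (adjusted p = 0.751) and passed without sgGal4 3 (-0.61, adjusted p = 0.0497). sgHS2 was 0.69 above sgHBG (adjusted p = 0.0785), and without sgGal4 1 the same difference had an adjusted p of 0.00102. In the order of means, WT, sgHS2, sgGal4, sgHBG and sgHS1-5, no neighbours differed.

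FTL varied less between groups than FTH1. Its level was 3294 and 3372 CPM in WT, and 6422, 3120.2 and 3071 CPM in sgGal4, where library 1 stood far above the other two. The sgHS2 libraries held 3582, 4655 and 3483 CPM, the sgHBG libraries 3173, 3099 and 3023 CPM, and the sgHS1-5 libraries 3005, 2496 and 2661 CPM. The only called difference was in sgHS1-5 against sgGal4 (1.55-fold lower, log2 difference -0.63 ± 0.24, adjusted p = 0.0499). It was lost in 22 of the 27 other settings, among them without sgGal4 1 (-0.19, adjusted p = 0.176), without sgHS1-5 2 (-0.57, adjusted p = 0.135) and without sgHS1-5 2 and 3 (-0.48, adjusted p = 0.416). FTL in sgGal4 differed from WT by 0.33 with all libraries and by -0.11 without sgGal4 1 (adjusted p = 0.334 and 0.481). The difference of sgHS2 from sgGal4 turned from -0.11 (adjusted p = 0.775) to 0.34 (adjusted p = 0.0274), and that of sgHBG from -0.44 (adjusted p = 0.187) to 0.0014 (adjusted p = 0.998). sgHS1-5 was 0.52 below sgHS2 (adjusted p = 0.0983), and without sgGal4 1 the same difference had an adjusted p of 0.000621. Likewise not called with all libraries but past the threshold without sgGal4 1 were FTL in sgHS1-5 against WT (-0.29, adjusted p = 0.0328) and in sgHS2 against sgHBG (0.33, adjusted p = 0.0257).

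The ratio of the chains separated the groups more cleanly than either chain. FTL exceeded FTH1 by RPKM 1.64- and 1.64-fold in WT 1 and 2, and 3.36-, 2.97- and 2.96-fold in sgGal4. The ratio was 2.13, 2.08 and 2.12 in sgHS2, 2.68, 2.68 and 2.65 in sgHBG, and 2.76, 2.92 and 2.51 in sgHS1-5. WT was lowest, sgHS2 next and sgGal4 highest with no overlap, and sgHBG lay inside the sgHS1-5 range. Of the libraries that stood apart in level, sgHS2 2 had a ratio close to the others of its group. sgGal4 1 was further from sgGal4 2 and 3 than these were from sgHS1-5 1 and 2. For a single value such as this, an exact two-sided permutation test cannot go below p = 0.1 with 3 against 3 libraries or 0.2 with 3 against 2, and the ratio is given here as a description with no test. Together the chains took 0.404% to 0.765% of the counted reads, most in sgHS2 2 and sgGal4 1.

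**Figure D3:**
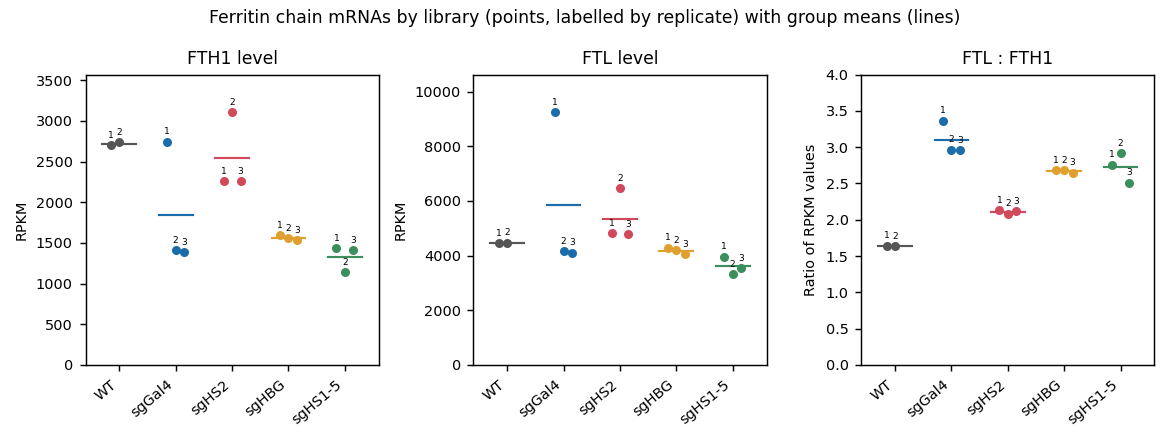
RPKM of FTH1 (left) and FTL (middle), and the FTL to FTH1 ratio of RPKM values (right), in 14 libraries (points, numbered by replicate) by group, with group means as lines. sgGal4 1 stands at 2746 RPKM of FTH1 and 9239 RPKM of FTL, above sgGal4 2 and 3, and its ratio of 3.36 is above theirs of 2.97 and 2.96.

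SLC40A1, ferroportin, the exporter of iron from cells (chr2:189560579-189583758, minus strand), showed the largest rise over WT of the 9 genes with reads in WT. WT held 28.3 and 32.1 CPM. The sgGal4 libraries held 63.0, 89.2 and 87.1 CPM, the sgHS2 libraries 109, 103 and 111 CPM, the sgHBG libraries 119.6, 119 and 114 CPM, and the sgHS1-5 libraries 108, 70.5 and 115 CPM. Every sgRNA library was above WT, lowest in sgGal4 1 and sgHS1-5 2. SLC40A1 rose over WT 2.65-fold in sgGal4 (log2 difference 1.40 ± 0.20, adjusted p = 0.000128), 3.57-fold in sgHS2 (1.84 ± 0.20, adjusted p = 2.41e-05), 3.90-fold in sgHBG (1.96 ± 0.20, adjusted p = 1.44e-05) and 3.23-fold in sgHS1-5 (1.69 ± 0.20, adjusted p = 3.46e-05). These 4 calls held in every setting tried, as did the 4 of TFRC against WT.

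Differences of SLC40A1 among the sgRNA populations were small. It rose 1.47-fold in sgHBG over sgGal4 (log2 difference 0.56 ± 0.17, adjusted p = 0.0302), a call lost without sgGal4 1 (0.42, adjusted p = 0.0523) or any 1 sgHBG library (adjusted p from 0.0692 to 0.0864). sgHS2 and sgHS1-5 were above sgGal4 by 0.43 and 0.29 (adjusted p = 0.0716 and 0.193). Without sgHS1-5 2 these had an adjusted p of 0.0185 and 0.0198, the second with a difference of 0.48, and without sgHS1-5 2 and 3 the first had 0.0266. In the order of means, sgHBG, sgHS2, sgHS1-5, sgGal4 and WT, the only neighbours that differed were sgGal4 and WT. The uptake receptor TFRC and the exporter SLC40A1 thus both had WT as the lowest group by a called difference.

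HMOX1 encodes heme oxygenase-1, the inducible enzyme that opens the heme ring and frees its iron, and is held down by BACH1 and driven by NRF2 (chr22:35380361-35394214, plus strand). It had 0 reads in all WT, sgGal4 and sgHBG libraries and 1 read in each sgHS2 library. sgHS1-5 1, 2 and 3 held 1, 27 and 14 reads, or 0.162, 3.69 and 1.89 CPM. The signal was thus carried by sgHS1-5 2 and 3, through which alone the gene passed the filter on low counts. A gene that passes in this way had to differ, so the p-values here are a description and support nothing. A count of 0 allows up to 3 reads over a group, which is 0.140 CPM in WT, 0.106 CPM in sgGal4 and 0.0918 CPM in sgHBG. With that floor, sgHS1-5 was at least 14.3-fold higher than WT, at least 19.0-fold higher than sgGal4 and at least 21.9-fold higher than sgHBG (adjusted p = 0.0123, 0.00812 and 0.0104). Against sgHS2 the ratio was 21.2, with a 95% interval of 6.77 to 107 from an exact binomial for counting error only (adjusted p = 0.0164). Floors cover counting error only, since the reads carry no molecular identifiers.

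The HMOX1 calls did not hold without sgHS1-5 2 and 3, where the adjusted p rose to 0.192 against WT, 0.187 against sgGal4, 0.802 against sgHS2 and 0.225 against sgHBG. The call against WT was also lost without WT 1 (adjusted p = 0.0573) or WT 2 (adjusted p = 0.0608). The call against sgHS2 was lost without any 1 sgHS2 library (adjusted p from 0.0512 to 0.0574) or without sgHS1-5 2 (adjusted p = 0.0588). The 9p21 genes and some markers of other cell types were highest in the same libraries as HMOX1. CDKN2A, CDKN2B and MTAP, which lie in the 9p21 region that K562 has lost, summed to 0 to 0.178 CPM in the other groups and 1.13 to 27.4 CPM in sgHS1-5. CSF1R, the receptor for macrophage colony-stimulating factor, had 5, 203 and 77 reads in sgHS1-5 1, 2 and 3 and at most 3 elsewhere. MS4A1, the B cell antigen CD20, had 15, 285 and 71 reads there and 0 elsewhere. CD14, a monocyte marker, had 1, 35 and 19 reads in sgHS1-5 and 0 to 8 elsewhere.

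The whole list of 14 macrophage and monocyte markers summed to 122 to 126 CPM in WT, 339 to 372 in sgGal4, 161 to 186 in sgHS2, 234 to 250.4 in sgHBG and 198 to 691 in sgHS1-5. sgHS1-5 1 and 3, at 198 and 299 CPM, were below every sgGal4 library. Of 8 tested, 4 were higher and 2 lower in sgHS1-5 than in sgGal4 (20.3% and 20.2% of all genes), and 7 and 0 than in WT (23.4% and 19.5%). CSF1R, with at most 3 reads elsewhere, and CD14, with at most 8, could pass the filter only through sgHS1-5. Such genes had to differ, so the counts of higher markers were partly set by the filter. Of that list, C1QA and C1QC had 0 reads in every library and MARCO 1 read in all. Most of the sum in the other groups came from LYZ and CD68, which K562 expressed at 35.1 and 73.3 CPM in WT 1. The 9 lymphoid markers summed to 168 to 178 CPM in WT and 351 to 480.0 in sgHS1-5, against 137 to 242 in sgGal4, 137 to 178 in sgHS2 and 383 to 398 in sgHBG. The part of these transcripts in the HMOX1 result was not tested. The 10 megakaryocyte markers summed to at most 155 CPM in WT, sgGal4, sgHS2 and sgHS1-5 and 322 to 330.0 in sgHBG, and the 9 fibroblast and epithelial markers to 601 to 1158 CPM over all libraries.

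**Figure D4:**
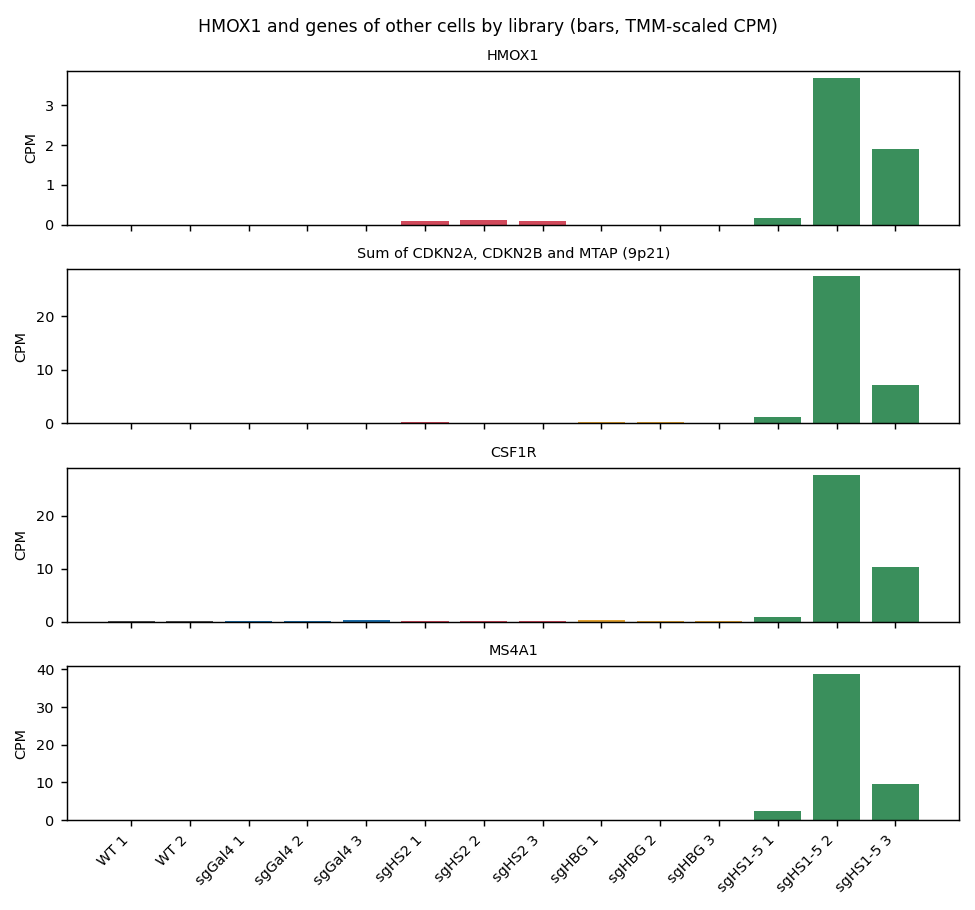
Level (bars, TMM-scaled CPM) of HMOX1, of the sum of CDKN2A, CDKN2B and MTAP, of CSF1R and of MS4A1 in each of the 14 libraries (x axis). All 4 are highest in sgHS1-5 2 and next highest in sgHS1-5 3, with HMOX1 at 3.69 and 1.89 CPM.

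IREB2, iron regulatory protein 2, binds the hairpins shown above when iron is scarce and is degraded when iron is plentiful (chr15:78437431-78501456, plus strand). It was lowest in sgGal4. Its level was 104 and 100.1 CPM in WT and 49.6, 74.5 and 82.0 CPM in sgGal4. The sgHS2 libraries held 118, 87.1 and 121 CPM, the sgHBG libraries 116, 120.4 and 118 CPM, and the sgHS1-5 libraries 98.3, 118 and 99.8 CPM. All 3 sgGal4 libraries were below every other library, and sgHS2 2 was the lowest of the rest. IREB2 fell 1.48-fold in sgGal4 against WT (log2 difference -0.57 ± 0.19, adjusted p = 0.0277), a call lost without WT 1 (adjusted p = 0.128) or WT 2 (adjusted p = 0.0916). It rose over sgGal4 1.58-fold in sgHS2 (0.66 ± 0.17, adjusted p = 0.0117), 1.72-fold in sgHBG (0.78 ± 0.17, adjusted p = 0.00616) and 1.53-fold in sgHS1-5 (0.61 ± 0.17, adjusted p = 0.0132). The sgHS2 call was lost without sgHS2 3 (adjusted p = 0.0534) and the sgHS1-5 call without sgHS1-5 2 (adjusted p = 0.0514) or without sgHS1-5 2 and 3 (adjusted p = 0.187). Without sgGal4 1 the rises were 0.47, 0.60 and 0.43 on the log2 scale, and all 3 passed. Against WT, IREB2 in sgHS2, sgHBG and sgHS1-5 differed by 0.09, 0.21 and 0.05 (adjusted p = 0.766, 0.438 and 0.872 in edgeR's test). With all libraries, only sgGal4 was thus called different from WT. The order of means was sgHBG, sgHS2, sgHS1-5, WT and sgGal4, and only WT and sgGal4 differed as neighbours.

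Library sgGal4 1 bore on every comparison with sgGal4, and leaving it out changed the number of called genes. It moved from 6 to 8 of 10 in sgGal4 against WT (51% of all genes then called), from 4 to 6 in sgHS2 against sgGal4 (38%), from 4 to 3 in sgHBG against sgGal4 (28.3%) and from 4 to 5 in sgHS1-5 against sgGal4 (46%). STEAP3, SLC25A37 and TFR2 kept their calls against sgGal4 in the same populations, with STEAP3 at -1.33 and SLC25A37 at 1.23 on the log2 scale in sgHS2. The differences from sgGal4 that changed sign were those of FTL in sgHS2 and sgHBG, FTH1 in sgHBG, TFRC in sgHS1-5 and SLC11A2 in sgHS2 and sgHBG, none of them called with all libraries. Through the shared spread, comparisons without sgGal4 moved too when this library was left out. The count went from 2 to 5 in sgHS2 against WT (48.9% of all genes), from 1 to 4 in sgHS2 against sgHBG (22.2%), from 3 to 5 in sgHS1-5 against sgHBG (40.7%) and from 3 to 6 in sgHS1-5 against sgHS2 (54.3%). With sgHS1-5 2 and 3 left out, 1 gene passed in sgHS1-5 against sgGal4 (17.2%), 3 against WT (26.6%), 2 against sgHBG (9.61%) and 1 against sgHS2 (18.5%).

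**Figure D5:**
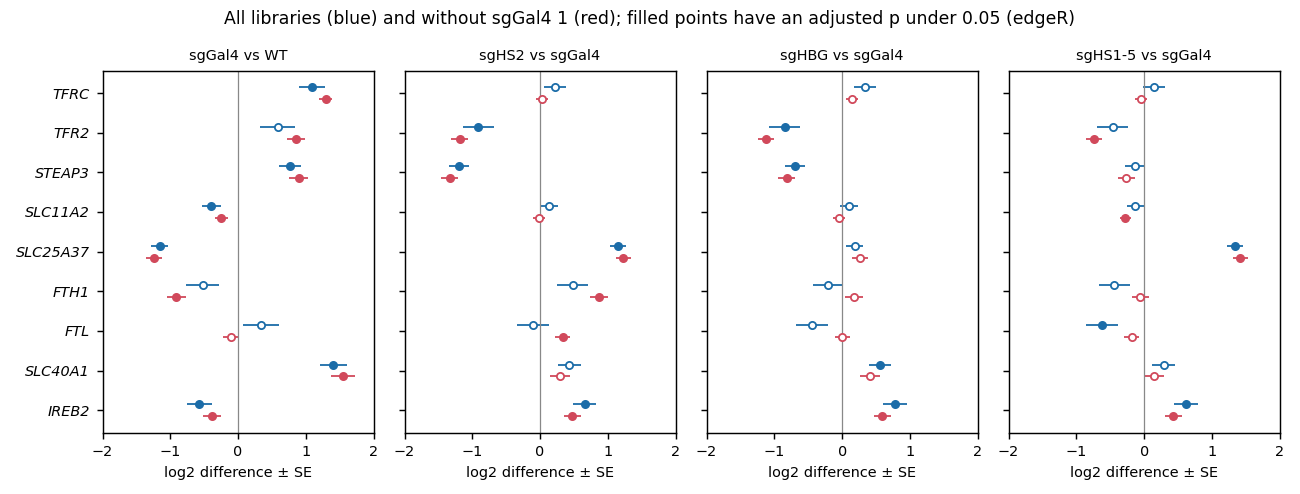
Fitted log2 difference ± SE (x axis) of 9 genes (y axis) in the 4 comparisons that involve sgGal4, with all 14 libraries (blue) and without sgGal4 1 (red). Filled points have an adjusted p under 0.05 in edgeR's test, and FTH1 moves from -0.52 to -0.91 in sgGal4 against WT and FTL from -0.11 to 0.34 in sgHS2 against sgGal4.

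Other genes of iron handling moved in both directions. Of 28 tested genes for iron transport, storage and sensing, 8 were higher and 8 lower in sgGal4 than in WT (median log2 difference 0.18), where 22.7% of all tested genes were higher and 19.6% lower. Against sgGal4, 8 were higher and 5 lower in sgHS2 (median 0.12, beside 14.5% and 15.6% of all genes), 5 and 3 in sgHBG (-0.09, beside 12.1% and 12.6%), and 3 and 8 in sgHS1-5 (-0.23, beside 20.3% and 20.2%). These shares of all genes are also the background of the other lists below. Without sgGal4 1 the counts against sgGal4 were 10 and 6, 5 and 5, and 4 and 11, and without sgHS1-5 2 and 3 that for sgHS1-5 was 0 and 4 (17.2% of all genes then called). The 4 with the lowest p over the 5 groups were TF, EXOC6, LTF and NCOA4. TF, transferrin itself, stood at 10.8 ± 1.21 CPM in WT (SD, n = 2) and 0.442 to 1.36 CPM in the means of the sgRNA groups. EXOC6, an exocyst subunit that recycles the transferrin receptor, stood at 32.2 ± 2.29 CPM in sgGal4 (SD, n = 3), 41.6 ± 1.37 in sgHS1-5 and 60.1 to 66.2 in the other means. LTF, lactotransferrin, was near absent in WT, sgGal4 and sgHS1-5 (at most 0.819 CPM in a library) and present at 6.05 ± 1.07 CPM in sgHS2 and 3.81 ± 0.512 in sgHBG.

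NCOA4, the receptor that sends ferritin to the lysosome to release its iron, stood at 498 ± 39.5 CPM in sgHS2, above every library of WT (378 to 389), sgGal4 (254 to 301), sgHBG (340.3 to 354) and sgHS1-5 (275 to 310.0). FBXL5, the iron-sensing ligase subunit that marks IREB2 protein for degradation, stood at 54.4 ± 3.39 CPM in sgHS2, 36.1 ± 2.12 in WT, 35.0 ± 3.15 in sgHBG, 28.1 ± 8.26 in sgHS1-5 and 23.2 ± 5.34 in sgGal4. FBXL5 and IREB2 were both lowest in sgGal4. ACO1, iron regulatory protein 1, ranged only from 37.6 ± 3.01 CPM in sgHS1-5 to 48.9 ± 3.32 in sgHS2.

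Among 18 tested genes of heme transport and breakdown, 8 were higher and 5 lower in sgGal4 than in WT (median 0.29, beside 22.7% and 19.6% of all genes). Against sgGal4, 3 were higher and 3 lower in sgHS2 (median 0.00), 0 and 4 in sgHBG (-0.14) and 0 and 5 in sgHS1-5 (-0.46), where 30.1%, 24.7% and 40.4% of all genes were called. Without sgGal4 1 the counts were 5 and 4, 1 and 4, and 1 and 8, and without sgHS1-5 2 and 3 that for sgHS1-5 was 0 and 1. ABCG2, a transporter that exports porphyrins among many substrates, stood at 13.5 ± 1.76 CPM in sgGal4 and at most 2.03 CPM in any other library. SLC48A1, which moves heme out of the lysosome, stood at 79.2 ± 1.40 CPM in WT and 70.9 ± 5.57 in sgHS2 but 46.2 to 50.3 in the other means. PGRMC2, a heme-binding membrane protein, was highest in sgHS2 at 74.6 ± 1.69 CPM, and its paralog PGRMC1 in WT at 99.2 ± 0.206 CPM. BLVRA and BLVRB encode the biliverdin reductases that act after heme oxygenase. BLVRB stood at 530.4 ± 29.7 CPM in WT and 189 to 296 CPM in the means of the sgRNA groups. BLVRA was 215, 82.0 and 91.7 CPM in sgGal4 1, 2 and 3, so its mean there rested on library 1.

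HMOX1 is a target of NRF2 and BACH1, and 25 other such targets were tested. In sgGal4 against WT, 2 were higher and 10 lower (median -0.20, beside 22.7% and 19.6% of all genes), and without sgGal4 1 the counts were 1 and 10. Against sgGal4, 10 were higher and 2 lower in sgHS2 (median 0.30), 3 and 0 in sgHBG (0.09) and 6 and 5 in sgHS1-5 (-0.07), where 30.1%, 24.7% and 40.4% of all genes were called. Without sgHS1-5 2 and 3 the last was 3 and 2. The sgHS1-5 count thus lay near the share of all genes. SLC7A11, the cystine importer, stood at 119 ± 12.2 CPM in WT, 74.5 ± 15.9 in sgHS2, 53.9 ± 2.03 in sgHBG, 30.3 ± 7.71 in sgGal4 and 17.6 ± 4.80 in sgHS1-5. ME1 was lowest in sgHS1-5 at 6.47 ± 0.958 CPM, and AKR1C1 highest in WT at 54.9 ± 3.24 CPM. Against WT, 2 of the 25 targets were higher and 9 lower in sgHS1-5, where HMOX1 had its reads (23.4% and 19.5% of all genes). The counts against WT were 3 and 6 in sgHS2 (17.6% and 15.5%) and 1 and 7 in sgHBG (17.7% and 15.9%). The part of NRF2 and BACH1 in the HMOX1 result was not tested. BACH1 itself ranged from 66.7 ± 6.27 CPM in sgHS1-5 to 94.3 ± 21.5 in sgHS2.

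Of 27 genes for iron-sulfur cluster assembly, 6 were higher and 0 lower in sgGal4 than in WT (median 0.18, beside 22.7% and 19.6% of all genes). Against sgGal4, 0 were higher and 6 lower in sgHS2 (median -0.24), 0 and 8 in sgHBG (-0.30) and 2 and 11 in sgHS1-5 (-0.35), where 30.1%, 24.7% and 40.4% of all genes were called. Without sgHS1-5 2 and 3 the last was 1 and 2. Without sgGal4 1 these turned to 6 and 3 for sgGal4 against WT (median -0.05), 2 and 5 for sgHS2 (0.00), 2 and 7 for sgHBG (-0.03) and 4 and 8 for sgHS1-5 (-0.12). The medians thus lay nearer 0 without that library. HSPA9, the mitochondrial chaperone of cluster transfer, stood at 570.3 ± 48.9 CPM in sgHS1-5 and 938 to 1200.2 in the other means. CIAPIN1 and NFS1, the latter the cysteine desulfurase, were highest in sgGal4 at 119 ± 21.7 and 48.1 ± 7.62 CPM.

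Of 6 tested mRNAs other than FTH1, FTL, SLC40A1 and TFRC that are known to carry an iron-responsive element, ALAS2, EPAS1 and SLC11A2 among them, 0 were higher and 4 lower in sgGal4 than in WT (22.7% and 19.6% of all genes). Against sgGal4, 2 were higher and 0 lower in sgHS2, 0 and 0 in sgHBG (also 0 at an unadjusted p under 0.05 in edgeR's test), and 2 and 0 in sgHS1-5, where 30.1%, 24.7% and 40.4% of all genes were called. The sgHS1-5 count was 2 and 2 without sgGal4 1 and 0 and 0 without sgHS1-5 2 and 3. EPAS1, the hypoxia-inducible factor subunit with a 5′ element, stood at 108 ± 3.44 CPM in WT, 112 ± 15.7 in sgHS2, 63.6 ± 2.20 in sgHBG, 57.3 ± 20.8 in sgGal4 and 47.1 ± 9.87 in sgHS1-5. CDC42BPA ranged from 166 ± 61.9 CPM in sgGal4 to 293 ± 63.6 in sgHS1-5.

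The genes whose level followed each iron gene most closely over the 14 libraries were named by Pearson r of log2 CPM among 10829 genes with a mean of at least 5 CPM. These libraries share groups and depth, so r is a description. TFRC was closest to PPFIBP1 (r = 0.99), CPNE8 (0.98) and PPP1R10 (0.98), and SLC40A1 to MUC15 (0.99), ZKSCAN3 (0.98) and ZBTB47 (0.98). SLC25A37 was closest to FAM13A-AS1 (0.96), FAM178B (0.95) and PNCK (0.94), and STEAP3 to RAD18 (0.93), CLPB (0.92) and UCK2 (0.92). FTL was closest to CUTA (0.99), PRDX1 (0.98) and SKP1 (0.98), and FTH1 to JAGN1, NKAP and LAGE3 (0.96 each). TFR2 was closest to TRIM37 (0.93), ZDHHC8 (0.92) and SF3A1 (0.91), SLC11A2 to CLIP1 (0.96), EAF1 (0.96) and UHRF1BP1 (0.95), and IREB2 to DENND4A (0.98), ZEB1 (0.97) and MAP4K5 (0.96). HMOX1, with few reads, was closest to ITGB7, EMP1 (0.98 each) and CCL5 (0.97).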

How the data were processed

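The deposited files were 2 tables covering all 14 libraries, with genes named by symbol. One held raw read counts per gene for 24729 genes, whole numbers as deposited by the authors. The other, for 25268 genes, was deposited in RPKM, which corrects reads for gene length and library depth. Per the submitters' processing notes, TopHat, Cufflinks and DESeq were used with build hg19. Versions, the counting tool and the annotation are not given in the sources used here, and libraries came from the TruSeq RNA v2 kit, which does not mark strand.

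Groups and replicate numbers were taken from the sample titles. Counts were analysed with edgeR 4.0.16 (limma 3.58.1) in R 4.3.3. Genes were kept by filterByExpr (minimum count 10, minimum total 15), which left 14406, and scaled by TMM. All 14 libraries entered 1 quasi-likelihood fit on the 5 groups (common dispersion 0.0323, with 9 degrees of freedom left), so all groups share one estimate of the spread. P-values were adjusted by Benjamini-Hochberg across the whole table of tested genes, and a gene was called under 0.05. The log2 differences are fitted, first group minus second, ± SE. Levels are TMM-scaled CPM. The fit was tested on simulated data. Alternatives were RLE factors, other filters, DESeq2 1.42.0, limma voom, limma on log2(RPKM + 1) and log2(RPKM + 0.1), a fit of 2 groups, a replicate block, and libraries left out singly or together.

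The 10 genes and the gene lists were chosen with earlier results of these data known. The text names all 10 in every comparison and, from each of 5 related lists, the 4 genes with the lowest p over the 5 groups plus ACO1, NCOA4, FBXL5, BLVRA, BLVRB, BACH1 and ALAS2. Some genes that this rule names are not reported here. Lists of erythroid, macrophage and monocyte, megakaryocyte, lymphoid, and fibroblast and epithelial markers, and of 9p21 genes, served to check the cells. Coordinates and hairpins are from GENCODE release 29 on GRCh38, not the build of the counts.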

Additional observations from a re-analysis of the deposited data

How the results depend on the processing

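The alternatives were followed for 60 differences of single genes, the 37 that were called and 23 of those that were not. The other uncalled differences are not counted here. Of the 37, 19 kept their direction and call under all 27 alternatives. None of the 37 reversed. All 19 reversed values among the 60 belonged to differences that were not called with all libraries. Without sgGal4 1, FTL in sgHS2 against sgGal4 was 0.34, FTH1 in sgHBG against sgGal4 0.17, FTL in sgHBG against sgGal4 0.0014, TFRC in sgHS1-5 against sgGal4 -0.0494 and FTL in sgGal4 against WT -0.11. Without sgGal4 1 and sgHS2 2, the same were 0.17, 0.17, no reversal, -0.0694 and -0.10, and with sgHS1-5 2 and 3 left out as well, 0.19, 0.17, 0.0014, -0.0307 and -0.11, with FTH1 in sgHS1-5 against sgGal4 at 0.0567. SLC25A37 in sgHS2 against WT was 0.0304 without WT 2, 0.0885 on the scale of RPKM plus 0.1, and 0.0873 on that of RPKM plus 1 with or without a filter. Over all single libraries left out, the 5 differences named first and that of SLC25A37 ranged from -0.29 to 0.34, -0.38 to 0.17, -0.62 to 0.0014, -0.0494 to 0.26, -0.11 to 0.52 and -0.0572 to 0.0304, in the order given. SLC11A2 in sgHS2 and sgHBG against sgGal4, which is outside the 60, also reversed without sgGal4 1, to -0.0155 and -0.0468. The cause of the reversals was not tested.

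The number of the 10 genes called moved by over 1.5 times as follows. In sgHS2 against sgHBG it was 3 with DESeq2, 2 with RLE factors, 2 on each RPKM scale, 2 with at least 1 CPM in 3 libraries and 2 without sgHS1-5 2 and 3. In sgHS1-5 against sgGal4 it was 2 on the filtered RPKM scales and with the 1 CPM filter, where HMOX1 was filtered out and so could not count. In sgHS2 against WT it was 4 on the filtered RPKM scales. With only the 2 groups in the fit it was 2, 2 and 1 for sgHS2, sgHBG and sgHS1-5 against sgGal4, 4 and 8 for sgHS2 and sgHBG against WT, 4 for sgHS2 against sgHBG, and 5 and 5 for sgHS1-5 against sgHBG and sgHS2. Without sgGal4 1 and sgHS2 2 it was 6 in sgHS2 against WT, 7 and 8 in sgHS1-5 against sgHS2 and sgHBG, and 4 in sgHS2 against sgHBG. With sgHS1-5 2 and 3 left out as well it was 8 and 7 in sgHS2 and sgHBG against sgGal4, 8 and 8 in sgHS2 and sgHBG against WT, 4 in sgHS2 against sgHBG, and 6 and 8 in sgHS1-5 against sgHBG and sgHS2. With only sgHS1-5 2 and 3 left out, where the lone library is assumed to vary like the other groups, sgHS1-5 had 1 against sgGal4, 1 against sgHS2 and 3 against WT.

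Leaving out 1 library gave 3 to 6 called genes in sgHS2, 2 to 4 in sgHBG and 3 to 5 in sgHS1-5 against sgGal4, and 4 to 8 in sgGal4, 2 to 5 in sgHS2, 3 to 5 in sgHBG and 4 to 7 in sgHS1-5 against WT. It gave 1 to 4 in sgHS2 against sgHBG, 2 to 5 in sgHS1-5 against sgHBG and 2 to 6 in sgHS1-5 against sgHS2. The test of any difference called 8 to 10.

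Same-numbered libraries did not deviate together (1 of 18 pairs with r over 0.1), so the numbers were not taken to pair them. The highest r, 0.62, was between sgGal4 1 and sgHS2 2, which carry different numbers. With the replicate number as a block, 2 calls were lost, FTL in sgHS1-5 against sgGal4 (-0.59, adjusted p = 0.0653) and FTH1 in sgHBG against WT (-0.68, adjusted p = 0.0681). No other call among the 60 differences changed. HMOX1, at up to 27 reads in a library, is the one gene here limited by depth.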
